A study of Mus musculus with 3 samples.

Results

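The genes described here are those of the interferon system that can be recognised by name: the receptors of type I and type II interferon, the STAT and IRF transcription factors, and the interferon-stimulated gene families Ifit, Oas, Gbp, Mx, Ifi200 and Ifitm with Rsad2, Usp18, Isg15 and other genes named Ifi or Isg. They were taken from the gene names by fixed patterns, which used no expression value. The patterns took 72 of the 11419 listed genes. The 5 Ifitm genes and 3 genes of IRF2-binding proteins (Irf2bp1, Irf2bp2 and Irf2bpl) were taken by the same patterns.

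Messenger RNA was sequenced from 1 population of bone marrow cells of C57BL/6 mice, an inbred laboratory strain. The marrow came from the hind limbs, and the cells were sorted as CD11b+, F4/80+, CD169+ and CX3CR1neg, which the labels call macrophages. There were 3 libraries, named replicates 1, 2 and 3, holding 5150020, 40149274 and 37604930 assigned reads. The labels gave no treatment, no control population, no age and no sex, and did not say whether each library was made from its own mouse, so every p-value rests on a spread between libraries that may be technical.

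Interferons are secreted proteins that bind paired receptor chains at the cell surface and activate Janus kinases, which phosphorylate STAT proteins. STAT proteins join IRF9 to form a complex that binds the interferon-stimulated response element (ISRE) in front of antiviral genes, whereas STAT pairs without IRF9 bind the gamma-activated site (GAS). Receptors, STATs and most IRFs are made by many cells at rest and allow a quick response, here called tonic genes, while the antiviral effectors are made in quantity mainly after interferon has arrived, here called induced genes.

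The RNA was not that of macrophages alone. The 12 neutrophil genes in a fixed marker list summed to between 184360 and 220770 CPM over the 3 libraries (counts per 1000000 reads, the deposited unit), and all 12 were above 10 CPM. The 12 macrophage genes summed to between 242 and 265 CPM, with 5 above 10 CPM and 5 below. Siglec1, which encodes CD169, was at 0.388, 3.66 and 4.57 CPM in replicates 1, 2 and 3. Summed levels were 965 to 1193 CPM for 10 monocyte genes, of which Ly6c2 alone held 932 to 1141 CPM. Plasmacytoid dendritic cells are the main makers of type I interferon, and the 5 listed of their 10 genes summed to 51.3 to 52.9 CPM. Of that sum Runx2 alone held a mean of 30.3 CPM. Of the 5 genes 3 were below 10 CPM, and Tcf4 was not called. Values below are therefore those of the sorted population as a whole. In such a bulk sample, fewer cells of a type and less RNA per cell cannot be told apart.

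Tonic members were nearly all well above a level of 10 CPM, and most induced members were near or below it. Of the 72 members, 70 had at least 10 reads over the libraries and were tested, and 38 of these were above 10 CPM and 24 below, with 8 not called (limma, adjusted p under 0.05 over 11123 genes). Those shares, 54.3% and 34.3% of the members tested, stood beside 58.8% and 28.3% of all genes tested. Among the 17 tonic members 16 were above 10 CPM and none below, Irf8 being the one not called. The 44 induced members had 14 above, 22 below, 6 not called and 2 not tested, Ifi213 with 6 reads in all and the pseudogene Ifi203-ps with 0 reads. The 11 members put in neither class (the 5 Ifitm genes, Irf4, the 3 IRF2-binding proteins, Ifi30 and Isg20l2) had 8 above and 2 below. The counts per class depend on such placements, which were made with earlier results of these data known. Irf4, kept out of the tonic class, was below 10 CPM. Of the 5 Ifitm genes, kept out of the induced class, 4 were above. The plot of members by library shows these levels.

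**Figure D1:**
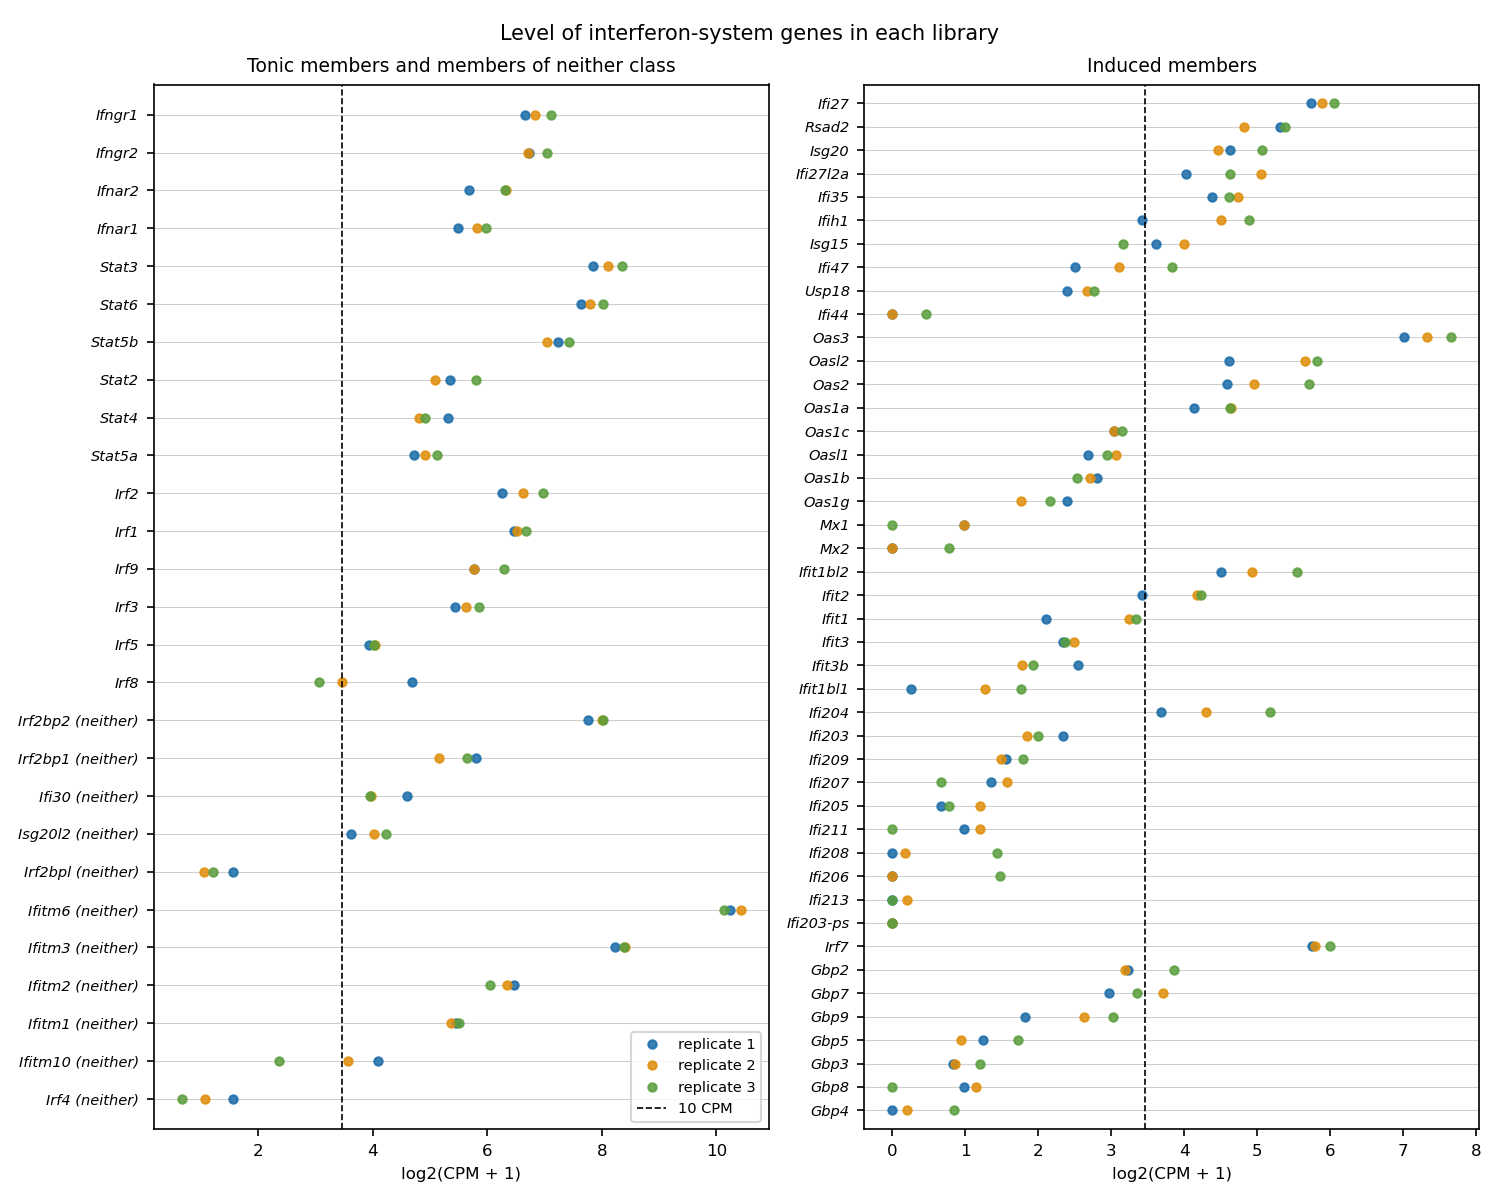
Level of 71 of the 72 members in each library, as log2(CPM + 1); every point is 1 library (replicates 1, 2 and 3 in blue, orange and green), and the dashed line is 10 CPM. By the test 16 of the 17 tonic members are above the line, while 22 of the 44 induced members lie below it and Oas3, at 128 to 201 CPM, is the highest of the induced.

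Because longer genes collect more reads, levels of different genes were compared as CPM per kb of exon. Exon length is that of all annotated transcripts of a gene joined, which can exceed the length of the RNA made. Orders per kb therefore depend on the annotation. The median tonic member was at 10.3, 13.2 and 16.5 CPM per kb in replicates 1, 2 and 3, and the median induced member at 1.68, 2.39 and 2.23 CPM per kb. For all listed genes the median was 4.12, 4.18 and 4.64 CPM per kb, so the tonic median lay above that of the listed genes and the induced median below it in each library. On the scale of log2(CPM per kb + 1) the tonic median exceeded the induced median by 2.07, 2.07 and 2.44, a mean of 2.19 ± 0.21 (SD, n = 3), which understates the ratio of the levels because 1 was added to each. This is a description of lists and carries no test. The difference was 1.87 when the Ifi200 family was left out of the induced class and 3.38 when CPM was not divided by length.

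The classes overlapped. Of the 44 induced members 6 had a mean level per kb above the tonic median: Ifi27l2a (51.2 CPM per kb), Ifi27 (39.8), Oas3 (23.0), Isg15 (15.1), Irf7 (15.0) and Isg20 (13.8). In the other direction 1 of 17 tonic members, Irf8 at 2.00 CPM per kb, was below the induced median. Induced members ran from 0 CPM per kb for Ifi203-ps to 51.2 for Ifi27l2a, and tonic members from 2.00 to 51.5 CPM per kb.

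**Figure D2:**
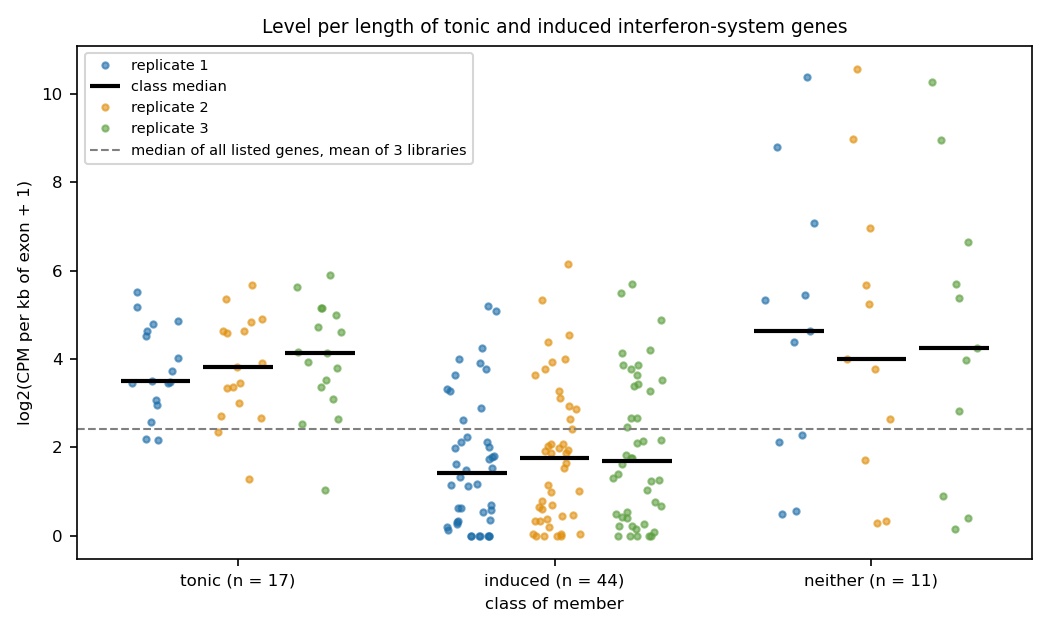
Level per length, log2(CPM per kb of exon + 1), of tonic (n = 17), induced (n = 44) and other (n = 11) members; each point is 1 gene in 1 library, black bars are class medians and the dashed line is the median of all listed genes. The tonic medians (10.3, 13.2 and 16.5 CPM per kb) lie above the line and the induced medians (1.68, 2.39 and 2.23) below it in all 3 libraries.

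The upstream sequence of the members was examined next, since STAT and IRF complexes bind there. The 250 bases before each gene start were available for 59 of the 72 members, from RefSeq on the build GRCm38.p6, and were searched for the ISRE core GAAANNGAAA on both strands and for the GAS core TTCNNNGAA, which reads the same on both strands; N is any base. Matches of the ISRE core overlapped each other in some members, and an ISRE match overlapped a GAS match in 0 members. At least 1 ISRE core was present in 22 of 32 induced members (68.8%), in 3 of 16 tonic members (18.8%: Irf2, Stat2 and Stat4), in 1 of the 11 others (9.09%: Ifitm2) and in 936 of all 27025 genes of the promoter table (3.46%). The GAS core was in 11 of 59 members (18.6%) and in 2197 of all genes (8.13%). A match is a description of letters and not evidence of binding.

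Stretches are shown for induced members that were above 10 CPM, each printed 5′ to 3′ on the strand of its gene with the motif in capitals (either strand, so TTTCNNTTTC is the same core read on the other strand). Oas3 and Oas1a make oligoadenylates that activate RNase L, Rsad2 (viperin) is a radical enzyme that blocks viral replication, and Ifit1bl2 is a relative of the RNA-binding protein Ifit1.
Oas3 (chr5:120777700-120777759, reverse strand): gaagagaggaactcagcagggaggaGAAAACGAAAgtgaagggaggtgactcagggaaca
Oas1a (chr5:120907526-120907564, reverse strand): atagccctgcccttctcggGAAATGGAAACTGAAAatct
Rsad2 (chr12:26456538-26456597, reverse strand): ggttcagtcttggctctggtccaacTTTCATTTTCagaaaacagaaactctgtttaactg
Ifit1bl2 (chr19:34640760-34640819, reverse strand): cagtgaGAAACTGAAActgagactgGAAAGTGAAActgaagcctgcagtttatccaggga
The cores began 75 bases before the gene start in Oas3 and 120 bases before it in Rsad2. Oas1a held 2 overlapping cores and Ifit1bl2 held 2 separate ones.

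The next stretches belong to induced members that were below 10 CPM, not called or too low to test, and they show that the same letters stood before genes of very different level. Ifit1 binds viral RNA that lacks normal cap methylation, Isg15 is a ubiquitin-like protein, Gbp7 is a guanylate-binding GTPase, and Ifi208 and Ifi213 belong to the Ifi200 family of nucleic acid binding proteins.
Ifit1 (chr19:34640779-34640838, forward strand): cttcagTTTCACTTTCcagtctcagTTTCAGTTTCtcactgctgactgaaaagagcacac
Isg15 (chr4:156200850-156200909, reverse strand): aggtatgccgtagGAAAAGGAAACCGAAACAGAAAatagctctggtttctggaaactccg
Gbp7 (chr3:142530258-142530317, forward strand): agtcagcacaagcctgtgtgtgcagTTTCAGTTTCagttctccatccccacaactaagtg
Ifi208 (chr1:173673582-173673641, forward strand): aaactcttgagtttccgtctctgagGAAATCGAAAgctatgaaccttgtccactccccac
Ifi213 (chr1:173599311-173599370, reverse strand): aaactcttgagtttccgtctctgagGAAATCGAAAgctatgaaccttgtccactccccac
Isg15 held 3 overlapping cores, at a level of 11.3, 15.0 and 7.92 CPM. The 60 bases of Ifi208 and Ifi213 were identical at all 60 positions, and both genes were near 0, Ifi208 with 0, 5 and 64 reads and Ifi213 with 0, 6 and 0 reads in replicates 1, 2 and 3.

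Ifit1 and Ifit1bl2 are divergent neighbours on chromosome 19, with RefSeq starts at 34640889 and 34640743 and 145 bases between them. The 2 cores lie in that gap and are the same bases read from either strand. Ifit1bl2 was at 21.7, 29.4 and 45.6 CPM and Ifit1 at 3.30, 8.49 and 9.09 CPM. The mean per kb of exon was 9.58 for Ifit1bl2 and 2.62 for Ifit1, with Ifit1bl2 the higher in every library. The transcripts of the pair shared few sequences (9.34% of the 50-base words of Ifit1bl2 and 7.13% of those of Ifit1 occurred in another gene).

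Among tonic members the ISRE core of Stat2 is shown, with the GAS cores of Irf1 and Irf8, transcription factors that answer to interferon gamma. Stat2 is itself a part of the complex that binds the ISRE.
Stat2 (chr10:128270251-128270310, forward strand): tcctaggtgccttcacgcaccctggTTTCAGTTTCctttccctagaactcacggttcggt
Irf1 (chr11:53769899-53769957, forward strand): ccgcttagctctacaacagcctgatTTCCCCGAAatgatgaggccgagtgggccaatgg
Irf8 (chr8:120736180-120736238, forward strand): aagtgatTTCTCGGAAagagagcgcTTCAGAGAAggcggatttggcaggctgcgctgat
Irf1, at 87.4, 91.3 and 101 CPM, held 1 GAS core. Irf8, at 24.9, 10.01 and 7.39 CPM, held 2.

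Within the induced class the ISRE core did not go with a higher level. The 22 members with a core had a median of 1.55 CPM per kb, with 4 above 10 CPM (Oas3, Rsad2, Ifit1bl2 and Oas1a), 12 below, 5 not called and 1 not tested. The 10 members without a core in these 250 bases had a median of 3.61 CPM per kb, with 6 above, 3 below and 1 not called. Of all genes tested 58.8% were above and 28.3% below, so the members without a core lay near those shares. No test was made of that difference, and 12 of the 44 induced members had no window to search. The 2 groups also differed in gene family. All Ifi200 genes with a window except Ifi209 had a core, and none of these genes exceeded the 0.583 CPM per kb of Ifi209. Related genes with identical stretches, such as Ifi208 and Ifi213, were counted as separate members.

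**Figure D3:**
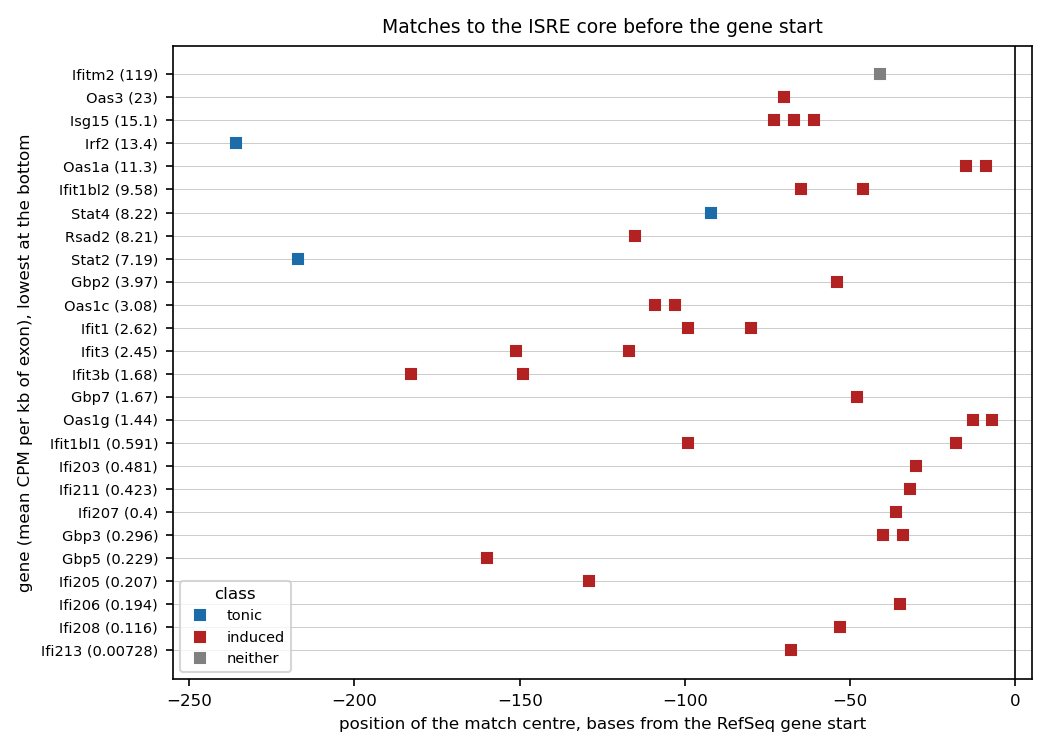
Position of each ISRE core match in the 250 bases before the RefSeq gene start (x axis, bases; 0 is the start), for the 26 members with a match, ordered by mean CPM per kb, which stands after each name; blue, red and grey squares are tonic, induced and other members. Matches of the 22 induced members lie between the start and less than 200 bases before it. Only members with a match are shown, and the induced ones range from Oas3 (23.0 CPM per kb) down to Ifi213, which had 6 reads.

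All 4 receptor chains were above 10 CPM, beside 58.8% of all genes tested. Ifngr1, the ligand-binding chain for interferon gamma (chr10:19591949-19610229), was at 99.8, 114 and 138 CPM, a log2 difference from 10 CPM of 3.41 (SE 0.12; limma, adjusted p = 4.12e-17). Its partner Ifngr2 was at 105, 104 and 130 CPM. The type I receptor chains were lower: Ifnar2 was at 50.5, 79.8 and 77.9 CPM and Ifnar1 at 43.7, 55.3 and 62.0 CPM. Neither type I chain reached the lowest library of either type II chain in any library. Per kb of exon the order was Ifngr1 (41.2), Ifngr2 (30.1), Ifnar2 (20.8) and Ifnar1 (9.03), and Ifngr1 exceeded Ifngr2 in each library by 1.25-fold to 1.44-fold. The smallest p of an exact two-sided sign-flip test with 3 libraries is 0.25, so such orders within a family are given as folds in each library, with no test.

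The list of interferon ligands and the lambda receptor showed the receptor side only. Ifnlr1, the specific chain of the type III interferon receptor, was at 82.1, 110 and 115 CPM, and Il10rb, the chain it shares with the IL-10 receptor, at 49.5, 46.1 and 46.8 CPM. Both were above 10 CPM (limma adjusted p = 2.33e-16 and 2.56e-12). The other 13 of 15 entries, all of them interferon genes such as Ifnb1 and Ifng, were not among the listed genes, so their level is unknown.

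Janus kinases and phosphatases that carry or curb the signal were above 10 CPM, while the SOCS-type inhibitors were not. Of 16 listed genes of the Janus kinase and feedback list 13 were above (81.2%, beside 58.8% of all genes tested), 2 below (12.5%, beside 28.3%) and 1 not called. Jak1, the kinase used by every interferon receptor, was at 266, 334 and 415 CPM, and Tyk2 and Jak2, its partners at the type I and type II receptors, were at means of 55.5 and 59.6 CPM. Of the phosphatases, Ptpn6 (SHP-1) was at 669, 730 and 790 CPM, Ptprc (CD45) at 471, 632 and 882 CPM and Ptpn1 at a mean of 203 CPM. SOCS proteins are feedback inhibitors that are themselves STAT targets. Socs1, the main brake on interferon signalling, was at 5.83, 4.21 and 10.5 CPM and below 10 CPM (limma adjusted p = 0.0459), as was Cish at 2.72, 7.85 and 7.87 CPM (adjusted p = 0.0184). Socs3 was at 6.21, 13.6 and 26.4 CPM and was not called.

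All 7 STAT genes were above 10 CPM, beside 58.8% of all genes tested. Stat3, which carries signals of IL-6 and G-CSF (chr11:100885098-100939540), was highest at 229, 276 and 328 CPM (log2 difference from 10 CPM 4.65, SE 0.12; limma, adjusted p = 3.37e-20). Stat6, the factor of IL-4 and IL-13, was at 197, 222 and 260 CPM. Per kb of exon the order of these genes turned, because the joined exons of all Stat3 transcripts span 9.53 kb and those of Stat6 4.40 kb. Which transcripts were made is not known, so this order is uncertain. Stat6 was at 51.5 ± 7.21 CPM per kb and Stat3 at 29.2 ± 5.20 (SD, n = 3), Stat6 being higher in each of the 3 libraries by 1.72-fold to 1.87-fold. Stat5b, used by GM-CSF and other cytokines, was at 149, 131 and 172 CPM, well above its close relative Stat5a at 25.4, 29.2 and 33.9 CPM. The pair shared 11% and 8.21% of their 50-base words, so few reads could be exchanged between them.

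Lower in the family, Stat2, the STAT specific to type I and type III interferon signalling, was at 39.8, 33.1 and 55.0 CPM (log2 difference from 10 CPM 1.96, SE 0.16; limma, adjusted p = 1.14e-10). Stat4, best known from IL-12 signalling in lymphocytes, was at 39.0, 27.2 and 29.3 CPM. The ranges of Stat2 and Stat4 overlapped. Other annotated genes overlapped 26.7% of the exon bases of Stat4, and 21.7% of its 50-base words occurred in the predicted gene Gm28177. How the counting treated such reads is not known, so the level of Stat4 is uncertain to that extent. Stat2 and Stat3 were each highest in replicate 3.

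The IRF genes differed in level. Irf2, which competes with Irf1 for its sites, was at 75.9, 97.6 and 124 CPM, and Irf1, the activator made after interferon gamma, at 87.4, 91.3 and 101 CPM, so their ranges overlapped. Irf9, the DNA-binding part of the ISRE complex, was at 53.8, 53.6 and 77.0 CPM. The factors that switch on interferon genes after a pathogen is sensed were Irf3, at 42.1, 48.3 and 56.6 CPM, and Irf7, at 52.8, 54.3 and 62.8 CPM. Irf7 is itself induced by interferon, yet it was above 10 CPM in every library (log2 difference from 10 CPM 2.39, SE 0.14; limma, adjusted p = 2.00e-13) and its range overlapped that of Irf3. Per kb of exon Irf1 led with 23.5 CPM per kb, ahead of Irf7 with 15.0 by 1.53-fold to 1.60-fold in the 3 libraries, and then Irf3 (14.2), Irf2 (13.4) and Irf9 (11.4).

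Irf5, which acts downstream of Toll-like receptors, was at 14.4, 15.5 and 15.3 CPM, above 10 CPM (limma adjusted p = 0.0117) though not without replicate 2 (adjusted p = 0.0953). Other annotated genes, Tnpo3 most of all, overlapped 14.1% of its exon bases. Of the lineage factors, Irf4 was the lowest IRF gene in every library. Irf8 had a mean of 14.1 CPM beside 15.1 CPM for Irf5, and exceeded Irf5 in replicate 1. Irf8, which directs progenitors to monocytes and dendritic cells, was at 24.9, 10.01 and 7.39 CPM, with replicate 1 high and the others near the level (adjusted p = 0.295; without replicate 3, adjusted p = 0.0089 and above). Irf4, a factor of lymphocytes and some dendritic cells, was at 1.94, 1.10 and 0.585 CPM and below 10 CPM (adjusted p = 9.42e-07). Both were highest in replicate 1 and lowest in replicate 3. Genes of B cells and basophils were also highest in replicate 1, with B lymphoid marker sums of 45.8, 23.5 and 30.2 CPM and basophil sums of 978, 137 and 138 CPM; their part in the Irf8 and Irf4 values was not tested.

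Genes of nucleic acid sensing lay on both sides of the level. The list had 21 listed genes, 14 of them above 10 CPM (66.7%, beside 58.8% of all genes tested) and 4 below (19.05%, beside 28.3%), with Tmem173 (STING), Zbp1 and Tlr7 not called. Samhd1, a nucleotide hydrolase that restricts viruses, was highest at 441, 509 and 571 CPM. Unc93b1, the chaperone of endosomal Toll-like receptors, was at 265, 266 and 288 CPM, and the adaptor Myd88 at 117, 130 and 157 CPM. The 4 genes below 10 CPM were the DNA sensor Aim2, at 2.72, 6.43 and 4.49 CPM, the adaptor Mavs, at 4.27, 2.47 and 3.80 CPM, and the endosomal receptors Tlr3 and Tlr9. Tlr3 was at 0, 0.324 and 1.36 CPM and Tlr9 at 0, 0.224 and 0.425 CPM, both below 10 CPM (limma adjusted p = 2.01e-07 and 5.13e-08). A gene with no read in replicate 1 could still have stood at up to 3 reads, or 0.583 CPM.

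Ifih1 (MDA5), the cytosolic sensor of long double-stranded RNA and a member by name, differed widely between libraries. It was at 9.71, 21.8 and 28.6 CPM from 50, 874 and 1074 reads, lowest in replicate 1. It was above 10 CPM over the 3 libraries (log2 difference from 10 CPM 0.81, SE 0.23; limma, adjusted p = 0.00216), but not when the variance trend was fitted with low genes kept in (adjusted p = 0.0902). Ifi35, an interferon-induced leucine zipper protein, was at 19.8, 25.8 and 23.5 CPM and above 10 CPM (adjusted p = 3.52e-06).

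The Oas family spanned the level of 10 CPM. Its 8 genes are of the oligoadenylate synthetase type, and several encode proteins that sense double-stranded RNA and make the second messenger of RNase L. Of these genes 4 were above 10 CPM (50%, beside 58.8% of all genes tested), 3 below (37.5%, beside 28.3%) and 1 not called. Oas3 (chr5:120753098-120777661) was at 128, 159 and 201 CPM (log2 difference from 10 CPM 3.87, SE 0.13; limma, adjusted p = 4.71e-18) and held 57.2% of the summed CPM of the family. Its exons shared only 0.521% of their 50-base words with any other gene. Divided by exon length, Oas3 was at 23.0 CPM per kb and exceeded Oas1a, the next, by 1.78-fold to 2.25-fold in the 3 libraries.

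Oasl2 was at 23.5, 49.2 and 55.4 CPM and Oas2 at 23.1, 29.9 and 51.1 CPM. Both were lowest in replicate 1 and highest in replicate 3, and both were above 10 CPM (limma adjusted p = 3.30e-09 and 3.79e-08). Oas1a was at 16.5, 23.9 and 23.8 CPM and Oas1g at 4.27, 2.39 and 3.46 CPM. The 2 genes shared 57.6% and 45.7% of their 50-base words, mostly with each other, so the split of reads between them is uncertain. The other low members were Oas1b, which the annotation classes as a polymorphic pseudogene, at 6.02, 5.53 and 4.76 CPM and Oasl1 at 5.44, 7.40 and 6.70 CPM. Both were called below 10 CPM, but Oasl1 (adjusted p = 0.0351) lost its call without any 1 of the 3 libraries (adjusted p = 0.110, 0.0983 and 0.0618 without replicates 1, 2 and 3). Oas1c, at 7.18, 7.17 and 7.84 CPM, was not called.

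The Ifit family, proteins with tetratricopeptide repeats that bind foreign RNA, sat around the level. It had 2 of 6 genes above 10 CPM (33.3%, beside 58.8% of all genes tested) and 3 below (50%, beside 28.3%), with Ifit1 not called. Ifit1bl2 led with 51.2% of the family's summed CPM (log2 difference from 10 CPM 1.53, SE 0.18; limma, adjusted p = 7.50e-08) and exceeded Ifit2, the next per kb, by 2.02-fold to 2.99-fold. Ifit2 was at 9.71, 17.0 and 17.8 CPM, called above with all 3 libraries (adjusted p = 0.0373) and not without replicate 2 (0.260) or replicate 3 (0.189). Ifit1 was not called (adjusted p = 0.0540), and was below 10 CPM without replicate 3 (0.0156).

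Ifit3 was at 4.08, 4.61 and 4.15 CPM and Ifit3b at 4.85, 2.42 and 2.82 CPM, both below 10 CPM. These 2 neighbouring genes shared 51.2% and 44.5% of their 50-base words, and the 60 bases around the ISRE core nearest their starts were identical at all 60 positions. Their separate levels are therefore uncertain. Ifit1bl1 was lowest of the family at 0.194, 1.42 and 2.39 CPM.

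Ifitm genes encode small membrane proteins that stop viruses from fusing with endosomes. Of the 5 genes 4 were above 10 CPM (80%, beside 58.8% of all genes tested), with Ifitm10 not called. The 3 highest members per kb of exon were Ifitm6, Ifitm3 and Ifitm2. Ifitm6 (chr7:141015699-141017924), a family member known from myeloid cells, was at 1203, 1373 and 1125 CPM (log2 difference from 10 CPM 6.81, SE 0.10; limma, adjusted p = 7.50e-24), and Ifitm3 was at 301, 340 and 335 CPM. Divided by exon length, Ifitm6 was at 1363 and Ifitm3 at 479 CPM per kb, a ratio of 2.52-fold to 3.03-fold in the 3 libraries. None of the 50-base words of Ifitm6 occurred in another gene. Ifitm2 was at 87.4, 80.8 and 65.4 CPM and Ifitm1 at 43.1, 40.3 and 44.7 CPM. Of the Ifitm2 exon bases 40.9% overlapped other annotated genes, the predicted gene Gm45717 most of all, so the level of Ifitm2 is uncertain. Ifitm10, the distant member, was at 16.1, 10.9 and 4.17 CPM, highest in replicate 1, and was not called (adjusted p = 0.694).

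The guanylate-binding proteins, GTPases that attack the vacuoles of intracellular pathogens after interferon gamma, had no member above 10 CPM. Of 7 listed genes 5 were below (71.4%, beside 28.3% of all genes tested) and 2 not called. Other annotated genes of the family, such as Gbp2b and Gbp11, were not among the listed genes, so their level is unknown. Gbp2 was at 8.35, 8.14 and 13.5 CPM and Gbp7 at 6.80, 12.1 and 9.23 CPM, both close to the level (limma adjusted p = 0.885 and 0.630). Gbp9 was at 2.52, 5.16 and 7.13 CPM and Gbp5, a member that promotes inflammasome activity, at 1.36, 0.922 and 2.29 CPM, and both were below 10 CPM (adjusted p = 0.00276 and 1.96e-06). Gbp8 was at 0.971, 1.22 and 0 CPM and Gbp4 at 0, 0.149 and 0.798 CPM. These low values rest on few reads, 5, 49 and 0 for Gbp8 and 0, 6 and 30 for Gbp4.

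The Ifi200 genes lie side by side on chromosome 1 between positions 173468485 and 174031810 and encode proteins with domains that bind DNA or other proteins of the family. Of 10 listed genes 1 was above 10 CPM, 7 below and 2 not tested. Of the 8 tested 12.5% were above and 87.5% below, beside 58.8% and 28.3% of all genes tested. The annotated gene Ifi214 was not among the listed genes, so its level is unknown. Ifi204, known from myeloid differentiation and DNA sensing, was the 1 above, at 11.8, 18.6 and 35.0 CPM (log2 difference from 10 CPM 0.92, SE 0.22; limma, adjusted p = 5.81e-04). It was lowest in replicate 1, where it had 61 reads, and the call was lost when low genes were kept in the fit (adjusted p = 0.0628). Per kb of exon Ifi204 exceeded Ifi209, the next, by 6.08-fold to 14.2-fold and held 69.6% of the family's summed CPM. Ifi203 was at 4.08, 2.59 and 3.00 CPM, Ifi209 at 1.94, 1.82 and 2.45 CPM and Ifi207 at 1.55, 1.97 and 0.585 CPM, all below 10 CPM. Sharing was common here: 72.8% of the 50-base words of Ifi211, 33.7% of those of Ifi209 and 20% of those of Ifi204 occurred in another gene.

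Mx genes encode dynamin-like GTPases that block influenza viruses and other viruses. Both Mx genes were near 0, and the annotation classes Mx2 as a polymorphic pseudogene. Whether either gene can make a working protein in this strain was not examined. Mx1 was at 0.971, 0.971 and 0 CPM from 5, 39 and 0 reads. Mx2 was at 0, 0 and 0.718 CPM from 0, 0 and 27 reads, and 0 allows up to 0.583 and 0.0747 CPM in replicates 1 and 2. Both were below 10 CPM (limma adjusted p = 2.44e-07 and 6.41e-08), with reads in different libraries. Ifi44, a cytoplasmic protein of the same response, was at 0, 0 and 0.372 CPM and below 10 CPM (adjusted p = 3.90e-08; by edgeR on the recovered reads, adjusted p = 0.0566).

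Of the remaining induced members, several were well above these. Ifi27, a mitochondrial protein, was at 52.2, 57.9 and 65.1 CPM (log2 difference from 10 CPM 2.43, SE 0.14; limma, adjusted p = 1.43e-13), and Rsad2 at 38.8, 27.2 and 40.7 CPM (log2 difference from 10 CPM 1.71, SE 0.16; limma, adjusted p = 1.59e-09). Isg20, an exonuclease, was at 23.7, 21.1 and 32.4 CPM and Ifi27l2a at 15.3, 32.2 and 23.6 CPM. On the other side Usp18, the protease that removes Isg15 and dampens the type I receptor, was at 4.27, 5.33 and 5.80 CPM and below 10 CPM (adjusted p = 0.00370). Isg15 itself was not called (adjusted p = 0.578), nor was the GTPase Ifi47 at 4.66, 7.65 and 13.3 CPM (adjusted p = 0.258; 0.0386 and below without replicate 3). Isg15 was lowest in replicate 3, where Ifi47 was highest.

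Outside the tonic and induced classes, Irf2bp2, a partner of Irf2 and a transcriptional repressor, was at 216, 255 and 261 CPM, and its relative Irf2bpl at 1.94, 1.07 and 1.33 CPM. Of the Irf2bp2 exon bases 20.5% overlapped other annotated genes, the predicted gene Gm26759 most of all. Irf2bp1 was at 54.6, 34.8 and 49.2 CPM. Ifi30, a lysosomal thiol reductase of antigen presentation, was at 23.3, 14.7 and 14.5 CPM and above 10 CPM (limma adjusted p = 0.00191). Isg20l2, a nucleolar exonuclease, was at 11.3, 15.2 and 17.7 CPM (adjusted p = 0.0270; not called without replicate 2, 0.148, or replicate 3, 0.160).

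A separate list of 54 further interferon-stimulated genes lay higher than the induced members. Of its 52 listed genes 34 were above 10 CPM, 11 below, 5 not called and 2 with under 10 reads not tested (Iigp1 and Phf11d). That is 68% above beside 58.8% of all genes tested and 22% below beside 28.3%. Of the induced members tested, 33.3% were above 10 CPM and 52.4% below, so the level of the induced members does not stand for all interferon-stimulated genes. Sp100, a protein of nuclear bodies, was highest at 303, 322 and 397 CPM, followed by the galectin Lgals9 at 187, 220 and 211 CPM. Ly6e, a surface protein that restricts coronaviruses, was at 243, 146 and 171 CPM. The lowest tested genes were Cxcl9, a chemokine made after interferon gamma, at 0, 0.324 and 0.638 CPM, and Tgtp2, a GTPase of the same response, at 1.17, 0.548 and 0.372 CPM. The plot by role sets these lists beside the members per length.

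**Figure D4:**
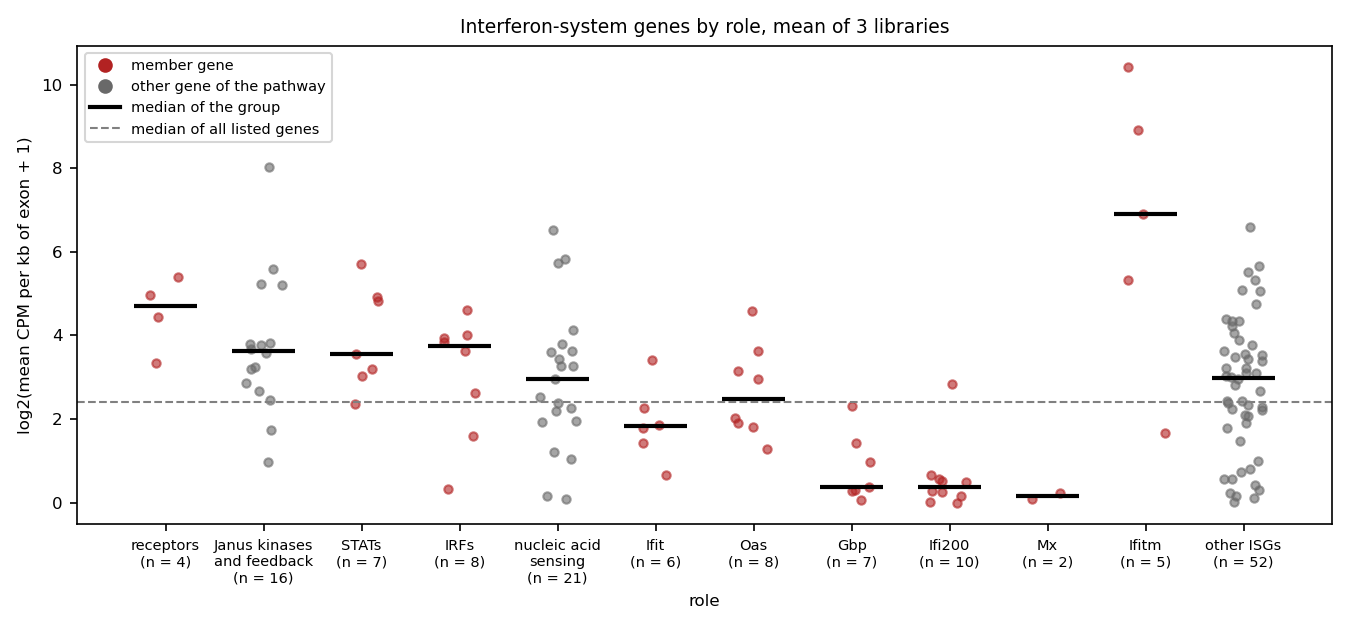
Mean level of each gene over the 3 libraries, log2(mean CPM per kb of exon + 1), by role; red points are members, dark points are other genes of the pathway, bars are group medians and the dashed line is the median of all listed genes. The 4 receptors all lie above the line and the medians of the 7 Gbp, 10 Ifi200 and 2 Mx genes below it, with Ifitm6 (1363 CPM per kb) at the top.

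The libraries differed in a way that touched many members. Of the 41 members with a mean of at least 10 CPM, 27 (65.9%) were highest in replicate 3, beside 53.3% of the 7283 genes at that level. Replicate 3 exceeded replicate 1 in 33 of the 41 (80.5%), beside 63.7% of all genes. The median difference between replicates 3 and 1 was 0.59 on the log2 scale for the 15 induced members, 0.40 for the 17 tonic members and 0.16 for all genes. Among induced members 12 of 15 (80%) were lowest in replicate 1, beside 47.0% of all genes. The highest library was more than 2-fold over the lowest in 8 of the 41 members (19.5%) and in 6.51% of all genes.

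Scaling between libraries changed part of this. With TMM scaling, which lowers the values of replicate 3, 23 of the 41 members (56.1%) were highest in replicate 3, beside 36.9% of all genes, and 30 (73.2%) were higher in replicate 3 than in replicate 1, beside 52.9%. Of the induced members 9 of 15 were then highest in replicate 3, in place of 11 of 15. Those counts describe 3 libraries without a group label, and no test was made. Among these 41 members, the 6 with the largest ratio of highest to lowest library were Ifitm10 (3.86-fold), Irf8 (3.36), Ifi204 (2.95), Ifih1 (2.94), Oasl2 (2.36) and Oas2 (2.21). Ifitm10 and Irf8 were highest in replicate 1, and the other 4, all induced, were highest in replicate 3.

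Marker sums moved between the same libraries. Those of 7 eosinophil genes were 526, 853 and 1262 CPM, those of 8 erythroid genes 980, 551 and 518 CPM, and those of 6 listed basophil genes 978, 137 and 138 CPM, in replicates 1, 2 and 3. The neutrophil sum was highest in replicate 2, at 220770 CPM, and lowest in replicate 3, at 184360 CPM. The macrophage sums were 260, 242 and 265 CPM and those of the plasmacytoid dendritic genes 51.3, 51.3 and 52.9 CPM. Single genes within these similar sums moved in opposite directions. C1qa was at 27.6, 16.3 and 12.3 CPM and Siglec1 at 0.388, 3.66 and 4.57 CPM. Between replicates 1 and 2, Ly6d went from 9.71 to 3.34 CPM and Spib from 0.777 to 4.21 CPM. Replicate 1 was also the shallowest library, with 51.5 reads for a gene at 10 CPM beside 401 and 376 in replicates 2 and 3. The part of the marker genes and of depth in the differences between libraries was not tested.

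**Figure D5:**
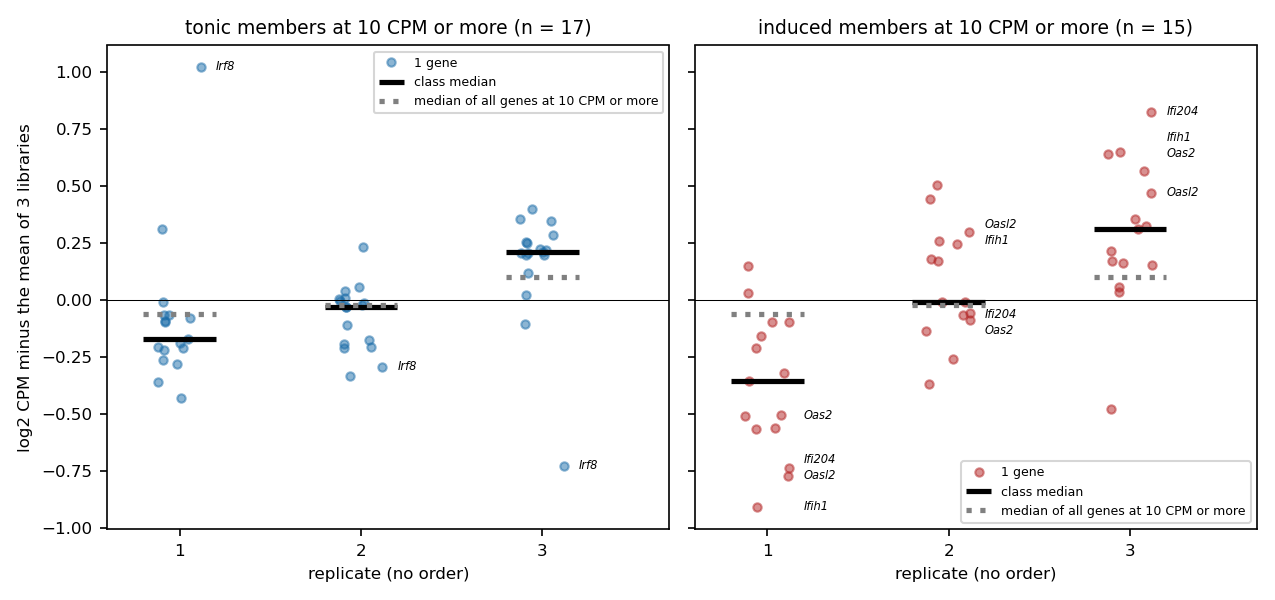
Deviation of each tonic (n = 17) and induced (n = 15) member with a mean of at least 10 CPM from its own mean over the 3 libraries, in log2 CPM; each point is 1 gene in 1 library, black bars are class medians, dotted grey bars the median of all genes at that level, and the replicates have no order. Of the induced members 11 of 15 are highest in replicate 3, beside 53.3% of all genes at that level. Lowest in replicate 1 are 12 of 15, beside 47.0% of all genes. Irf8 is highest in replicate 1.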

How the data were processed

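The authors deposited CPM (counts per 1000000 assigned reads) of 11419 genes in each of the 3 libraries. The tools FastQC, STAR, featureCounts and edgeR and the builds mm10 and GRCh38 are named, per the submitters' processing notes; which build was used for what, tool versions, annotation, strandedness and any filter on genes are not given in the sources used here. Each file repeated 44 entries, which were kept once.

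All values (100% in each library) were whole multiples of 1 read, within 0.01 reads, which gave the totals. At 10 CPM a gene had 51.5, 401 or 376 reads in replicates 1, 2 and 3. A count of 0 allows 3 reads, or 0.583, 0.0747 and 0.0798 CPM, counting error only.

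The intercept of log2(CPM + 1), pseudocount 1, was tested against 10 CPM in limma 3.58.1 (R 4.3.3), two-sided, with a variance trend, on 11123 genes with at least 10 reads over the libraries, and adjusted by Benjamini and Hochberg; on this scale low genes differ less than on a plain log scale. With 1 group and no control, this fixed level is the comparison. edgeR 4.0.16 and DESeq2 1.42.0 on the recovered reads, other scalings, pseudocounts, levels and filters, and leaving out each library were alternatives. The tests were checked on simulated data.

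Exon lengths and coordinates (1-based) came from GENCODE M21 on GRCm38, which is mm10, for 99.9% of genes, and upstream sequences from RefSeq on GRCm38.p6, matched by Entrez identifier. Length is that of the exons of all transcripts of a gene joined. Shared sequence is the percent of a gene's 50-base transcript words found in another gene.

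The members, classes and lists were chosen with earlier results of these data known. Named genes were all receptors, STATs and IRFs, up to 4 highest and 2 lowest per other family and list by mean CPM, and the 6 members with the largest ratio between libraries among those with a mean of at least 10 CPM. A result for 1 gene that this rule takes is not reported here. Gbp3, Ifi205, Ifi206, Ifi208, Ifi211, Oas1c, Oasl1, Isg20, Ifi27l2a, Ifi35, Isg15, Ifi47, Usp18, Ifi30 and Isg20l2, as well as Tyk2, Jak2, Socs3, Aim2, Mavs, Tmem173, Zbp1, Tlr7 and Tgtp2, fall outside that rule, and those named were chosen after their values were seen.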

Additional observations from a re-analysis of the deposited data

How the results depend on the processing

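The 38 members above 10 CPM and the 24 below stayed at 34 to 38 and 22 to 26 under other scalings, pseudocounts, filters and tools. They were 44 and 16 against 5 CPM and 28 and 34 against 20 CPM. Leaving out 1 library gave 35 to 38 above and 20 to 23 below. No paired analysis was possible because the series has 1 group. Among all tested genes 3153 were below 10 CPM and 1870 below 5 CPM, as a lower level must give. The tonic minus induced difference of 2.19 was 3.38 with CPM not divided by length, 2.60 with a pseudocount of 0.1 and 1.87 without the Ifi200 family; the cause was not tested. It ran from 2.07 to 2.26 without 1 library. With only the 60 members that share at most 20% of their sequence words, an alternative chosen after seeing the data, 34 were above, 17 below and the difference was 2.08.

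A lower or higher level turns the sign of genes that lie between the levels. Against 5 CPM the log2 levels became 0.84 for Gbp2, 0.76 for Gbp7, 0.56 for Ifi47, 0.76 for Ifitm10, 0.10 for Oas1b, 0.32 for Oasl1 and 0.024 for Usp18. Against 20 CPM they became -0.011 for Ifi204, -0.22 for Ifi30, -0.12 for Ifih1, -0.45 for Ifit2, -0.39 for Irf5, -0.65 for Irf8, -0.80 for Isg15 and -0.44 for Isg20l2. TMM and DESeq2 size factors changed no member's call. A gene at 10 CPM had 51.5 reads in replicate 1 beside 401 and 376 in replicates 2 and 3.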
